A study of Rattus norvegicus with 40 samples.

Results

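The aldehyde dehydrogenases described here are 10 genes, Aldh1a1, Aldh1b1, Aldh1l1, Aldh2, Aldh3a2, Aldh4a1, Aldh5a1, Aldh6a1, Aldh7a1 and Aldh9a1, which were chosen by symbol in the annotation of the array. They are read by 12 probe sets of 31139 on the array, which carries 13437 named genes. Aldh5a1 and Aldh6a1 have 2 probe sets each and the other 8 genes have 1 each, and every probe set is described whatever its value. The RNA came from livers of adult male Sprague Dawley SD:CD rats, with 10 rats in each of 4 groups. Each rat was gavaged once a day over 4 days, either with vehicle or with GW7647 in doses of 0.1 mg/kg, 1 mg/kg or 10 mg/kg, and was killed 24 h after its final gavage. GW7647 is a synthetic agonist of PPARα, the fatty acid receptor that switches on lipid oxidation genes in rodent liver. Each rat gave 1 array, so p-values measure the spread between rats. The rats were unmodified and no group carried a genetic change, and whole pieces of liver were used, so all liver cell types contribute and fewer cells of a type cannot be told apart from less RNA per cell.

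Aldehyde dehydrogenases oxidise aldehydes to carboxylic acids with NAD+ or NADP+ as the electron acceptor. Liver is a main site of this chemistry: it clears acetaldehyde made from ethanol, retinal made from vitamin A, fatty aldehydes, aldehydes from lipid peroxidation and the semialdehydes that arise when amino acids, amines and polyamines are broken down. The members sit in the cytosol (Aldh1a1, Aldh1l1, Aldh9a1), in mitochondria (Aldh1b1, Aldh2, Aldh4a1, Aldh5a1, Aldh6a1), on the endoplasmic reticulum (Aldh3a2) or in more than 1 compartment (Aldh7a1).

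Promoter windows from 250 bases before to 50 bases after the annotated gene start were found in RefSeq (rat build GRCr8) for 9 of the 10 genes, all but Aldh2. Shown here are the windows of the genes whose probe sets moved most, Aldh1a1, Aldh3a2 and Aldh5a1 upward and Aldh1b1 downward. Aldh1a1 lies at chr1:227537370-227537669 on the plus strand, Aldh1b1 at chr5:64858750-64859049 on the plus strand, Aldh3a2 at chr10:46448286-46448585 on the minus strand and Aldh5a1 at chr17:40560123-40560422 on the plus strand. Each is written 5′ to 3′ on the gene's strand, and capitals mark CCAAT, or its reverse complement ATTGG.
Aldh1a1: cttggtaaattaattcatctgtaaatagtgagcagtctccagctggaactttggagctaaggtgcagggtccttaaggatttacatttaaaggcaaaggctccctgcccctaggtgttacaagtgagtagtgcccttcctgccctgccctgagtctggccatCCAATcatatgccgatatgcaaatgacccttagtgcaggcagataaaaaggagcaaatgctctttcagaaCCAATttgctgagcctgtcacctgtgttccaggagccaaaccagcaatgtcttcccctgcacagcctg
Aldh1b1: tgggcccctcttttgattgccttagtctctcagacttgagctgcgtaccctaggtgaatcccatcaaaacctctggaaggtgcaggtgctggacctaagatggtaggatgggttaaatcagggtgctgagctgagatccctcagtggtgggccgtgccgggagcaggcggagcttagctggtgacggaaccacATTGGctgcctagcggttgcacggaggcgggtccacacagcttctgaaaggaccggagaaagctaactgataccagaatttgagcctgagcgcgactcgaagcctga
Aldh3a2: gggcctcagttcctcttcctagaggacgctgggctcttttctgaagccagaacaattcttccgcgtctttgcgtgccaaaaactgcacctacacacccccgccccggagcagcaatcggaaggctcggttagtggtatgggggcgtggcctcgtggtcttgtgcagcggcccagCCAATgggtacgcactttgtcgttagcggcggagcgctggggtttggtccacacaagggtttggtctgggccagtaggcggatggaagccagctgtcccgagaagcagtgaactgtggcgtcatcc
Aldh5a1: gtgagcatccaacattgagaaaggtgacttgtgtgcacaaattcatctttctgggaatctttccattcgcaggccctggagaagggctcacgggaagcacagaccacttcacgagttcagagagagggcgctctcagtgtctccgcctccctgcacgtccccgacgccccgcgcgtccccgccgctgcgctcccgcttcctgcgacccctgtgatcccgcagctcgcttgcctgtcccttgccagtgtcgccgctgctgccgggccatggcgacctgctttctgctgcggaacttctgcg
CCAAT is the letter string of the CCAAT box. It was present on either strand in 7 of the 9 windows and in 37.5% of 33469 windows of the same length in the table. Aldh1a1 has it at 2 positions, Aldh1b1 and Aldh3a2 at 1 each, and Aldh5a1 has none. The direct repeat AGGTCANAGGTCA, the textbook form of the element that PPARα binds with its partner RXR, was in none of the 9 windows and in 0.0538% of all windows. The looser AGGNCANAGGNCA, which includes it, was in none of the 9 and in 0.415% of all. The repeat's AGGTCA unit, which lies within it, occurred in 1 of the 9, that of Aldh9a1, and in 16.2% of all. TATAAA occurred in 1 of the 9, that of Aldh4a1, and in 14.2% of all. All searches covered both strands, and a letter match is a description of these 300 bases and not a binding site.

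Values are the log2 signals the authors deposited, and a change is a difference of group means on that scale. The whole scale of the arrays moved with dose. The mean of the array medians was 2.47 in vehicle and again 2.47, then 2.60 and 2.71 with rising dose, and the median change of all probe sets was 0.14 at 1 mg/kg and 0.26 at 10 mg/kg. Among 1113 probe sets with a mean level of log2 9 or more, where 8 of the 12 Aldh probe sets lie, it was 0.16 and 0.24. Quantile normalization, which gives every array the same distribution, brought these medians to -0.03 at both doses. Therefore at 1 and 10 mg/kg, and between doses, "rose" and "fell" are used only for a probe set with an adjusted p below 0.05 in the same direction on the deposited and on the quantile-normalized scale. At 0.1 mg/kg the deposited scale alone was used. Spiked poly-A control RNAs, added before labelling, read 5.57 ± 0.37 in vehicle, 5.84 ± 0.28, 6.22 ± 0.73 and 6.56 ± 0.38 with rising dose (SD, n = 10 each). Arrays 1 to 4 of the 1 mg/kg group gave 5.25 to 5.70 for them, and the other 6 arrays of that group gave 6.34 to 7.39. Hepatocyte markers averaged a median of 12.3 on vehicle arrays and 12.3 at 10 mg/kg, so the defining markers of the labelled tissue were present.

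Aldh1a1, Aldh3a2 and Aldh5a1 rose with GW7647 and Aldh1b1 fell at 1 and 10 mg/kg. Aldh1l1 and a probe set of Aldh6a1 fell by small amounts at 10 mg/kg, and the remaining members moved little on the deposited scale. At 0.1 mg/kg none of the 12 probe sets passed (1 had an unadjusted p below 0.05), while 0.0419% of all 31042 probe sets tested did. At 1 mg/kg 5 of the 12 passed on the deposited scale, where 35.8% of all did. After quantile normalization 4 passed, where 19.2% of all did. In all, 3 rose, against 9.13% of all probe sets, and 1 fell, against 3.03%. The top dose gave 7 of the 12 that passed on the deposited scale, where 66.0% of all did. Here 4 rose, against 18.2% of all, and 3 fell, against 5.86%. After quantile normalization alone, where 39.0% of all probe sets passed, the split at 10 mg/kg was 4 higher and 7 lower, against 4 and 3 on the deposited scale. At 1 and 10 mg/kg the median change of the 12 was 0.07 and 0.08, or -0.11 and -0.20 after quantile normalization, where the median of all was -0.01 at both doses. An F test over the 4 groups passed for 5 of the 12 on both scales, for the same number on the deposited scale and for 11 on the quantile-normalized scale, whereas 72.5% of all passed on the deposited scale, 43.7% on the quantile-normalized scale and 31.7% on both.

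**Figure D1:**
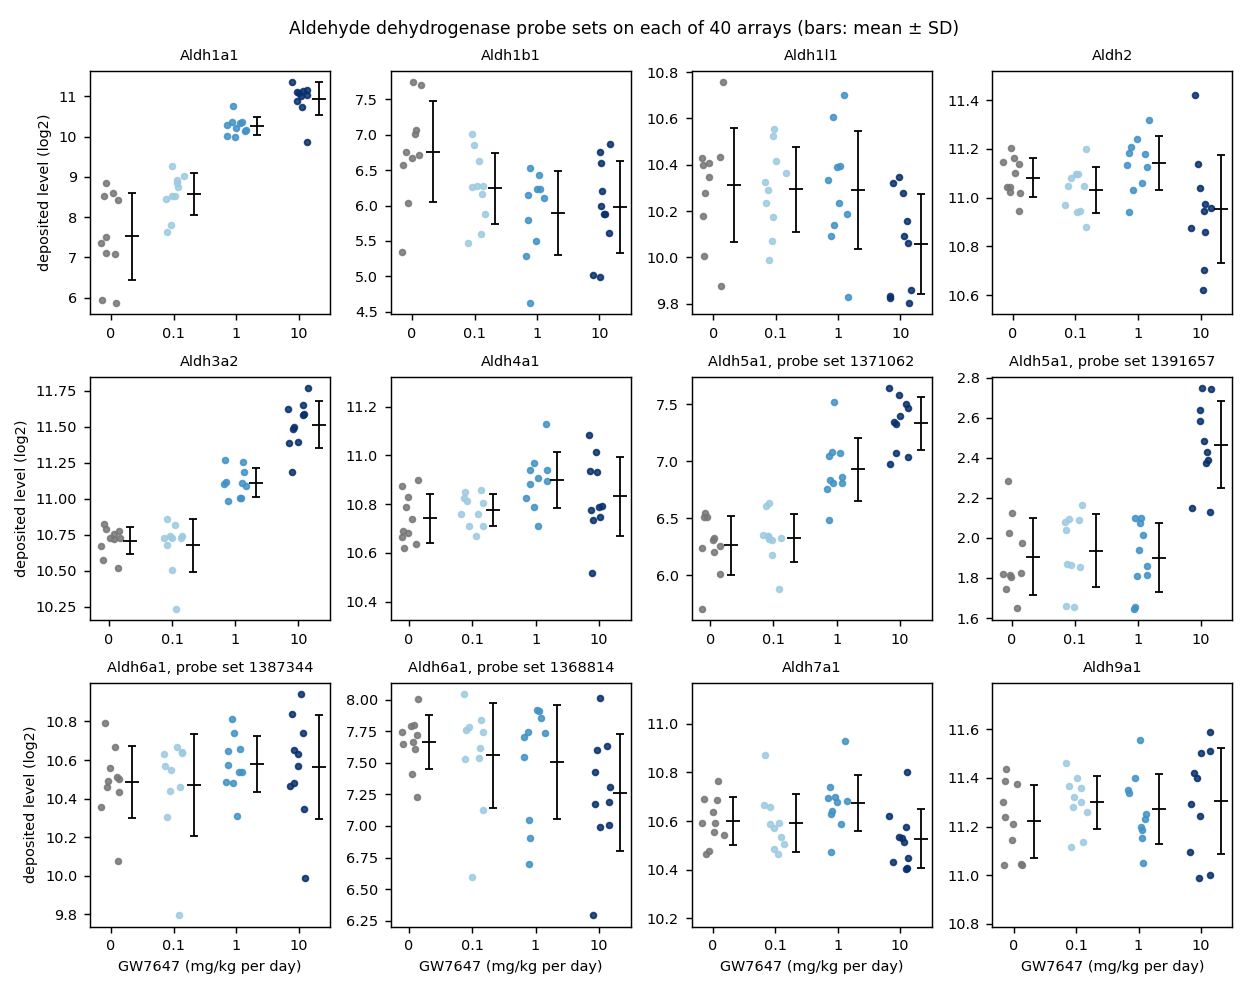
Deposited log2 signal (vertical axis, its range differs between panels) of the 12 Aldh probe sets on each of 40 arrays by dose of GW7647 (horizontal axis), 1 point per rat, with the group mean and SD. Aldh1a1 climbs from a mean of 7.53 in vehicle to 10.9 at 10 mg/kg, Aldh5a1 (1371062_PM_at) from 6.26 to 7.34 and Aldh3a2 from 10.7 to 11.5. Aldh1b1 drops from 6.76 to 5.98, and the means of the other panels move by smaller amounts.

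Aldh1a1, the cytosolic retinal dehydrogenase that makes retinoic acid and also oxidises lipid-derived aldehydes, had the largest change of the 10 genes. It read 5.87 to 8.86 with a median of 7.43 on vehicle arrays and 7.63 to 9.27 with a median of 8.64 at 0.1 mg/kg. It read 10.00 to 10.77 (median 10.24) at 1 mg/kg and 9.86 to 11.36 (median 11.06) at 10 mg/kg. Every array at 1 and 10 mg/kg was above every vehicle array, and the vehicle and 0.1 mg/kg groups overlapped. The vehicle arrays were also the most scattered, with an SD of 1.07 against 0.52, 0.22 and 0.41 at the rising doses. Aldh1a1 rose 6.66-fold at 1 mg/kg (log2 change 2.74, 95% interval 2.18 to 3.29, adjusted p = 4.46e-10) and 10.6-fold at 10 mg/kg (3.41, 2.86 to 3.96, adjusted p = 1.9e-13). After quantile normalization the log2 changes were 2.53 and 3.10. Groups that do not overlap, with the dosed group higher, were seen for 3.39% of all probe sets at 1 mg/kg and 12.8% at 10 mg/kg. At 0.1 mg/kg the mean was 2.07-fold that of vehicle (log2 change 1.05, 95% interval 0.50 to 1.60), which did not pass over all probe sets (unadjusted p = 0.000408, adjusted p = 0.525).

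Between doses, Aldh1a1 rose by a further 1.69 from 0.1 to 1 mg/kg (adjusted p = 6.39e-06; 1.46 after quantile normalization, adjusted p = 0.000148). From 1 to 10 mg/kg the difference was 0.67 (adjusted p = 0.0496), which did not pass after quantile normalization (0.57, adjusted p = 0.148). The fit uses 1 spread for all 4 groups, the scattered vehicle arrays included. On the deposited scale 8 of the 10 arrays at 10 mg/kg were above every 1 mg/kg array. Array 4 of the 10 mg/kg group, at 9.86, lay below every 1 mg/kg array, and the next lowest array of its group read 10.74, just under the highest 1 mg/kg array. Without that array the step was 0.79 on the deposited scale (adjusted p = 0.0216) and 0.68 after quantile normalization (adjusted p = 0.0808). On arrays 1 to 4 alone of the 1 mg/kg group, those with low poly-A controls, the rise over vehicle after quantile normalization was 2.64 (adjusted p = 1.72e-05).

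Aldh1b1, a mitochondrial enzyme related to Aldh2 that acts on acetaldehyde and other short aldehydes, went down. It read 5.34 to 7.75 (median 6.73) in vehicle and 5.46 to 7.01 (median 6.27) at 0.1 mg/kg. At 1 mg/kg it read 4.62 to 6.53 (median 6.13) and at 10 mg/kg 4.99 to 6.86 (median 5.94). All groups overlapped, with the highest readings in vehicle. Aldh1b1 fell by 0.87 at 1 mg/kg (1.83-fold lower, adjusted p = 0.00941) and by 0.79 at 10 mg/kg (1.72-fold lower, adjusted p = 0.00953), and by 1.14 and 1.08 after quantile normalization. At 0.1 mg/kg the difference was -0.52 (adjusted p = 0.985). No step between neighbouring doses passed: from 0.1 to 1 mg/kg it was -0.35 (95% interval -0.89 to 0.18, adjusted p = 0.29; after quantile normalization -0.66, -1.19 to -0.13, adjusted p = 0.071) and from 1 to 10 mg/kg 0.09 (-0.45 to 0.62). With arrays 1 to 4 alone of the 1 mg/kg group the fall was 0.92 on the deposited scale, which did not pass (adjusted p = 0.0683), and 1.15 after quantile normalization, which did (adjusted p = 0.0419).

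Aldh2, the mitochondrial enzyme that clears most acetaldehyde formed from ethanol, stayed within narrow limits. It read 10.94 to 11.20 (median 11.07) in vehicle, 10.88 to 11.20 (median 11.05) at 0.1 mg/kg, 10.94 to 11.32 (median 11.16) at 1 mg/kg and 10.62 to 11.42 (median 10.95) at 10 mg/kg. The 10 mg/kg arrays spread on both sides of all the others. At 10 mg/kg the change was -0.13 on the deposited scale (95% interval -0.26 to 0.00, adjusted p = 0.0771) and -0.41 after quantile normalization (adjusted p = 4.08e-06), so the call rested on the scale. The deposited difference passed without array 2 of the 10 mg/kg group (-0.18, adjusted p = 0.00544) and without its array 4 (-0.15, adjusted p = 0.0453). From 1 to 10 mg/kg Aldh2 fell by 0.19 (adjusted p = 0.0207; -0.28 and adjusted p = 0.00295 after quantile normalization). That fall did not pass without array 8 of the 10 mg/kg group (-0.15, adjusted p = 0.0544) or with scaling to the hybridisation controls (-0.25, adjusted p = 0.0689). It passed on neither scale with arrays 1 to 4 alone of the 1 mg/kg group (-0.11, adjusted p = 0.396; -0.20 and adjusted p = 0.173 after quantile normalization).

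Aldh3a2, the fatty aldehyde dehydrogenase of the endoplasmic reticulum that turns long-chain aldehydes into fatty acids and serves omega-oxidation and phytol breakdown, rose at both upper doses by less than Aldh1a1. It read 10.52 to 10.83 (median 10.73) in vehicle and 10.23 to 10.86 (median 10.73) at 0.1 mg/kg. It read 10.99 to 11.27 (median 11.11) at 1 mg/kg and 11.19 to 11.77 (median 11.54) at 10 mg/kg. On the deposited scale vehicle and 0.1 mg/kg lay on top of each other, and every array of the upper doses was above both. After quantile normalization the 1 mg/kg group overlapped both. Its lowest array read 10.91, under the highest of vehicle (10.93) and of 0.1 mg/kg (10.99), while the lowest at 10 mg/kg was 11.10. The rise was 1.32-fold at 1 mg/kg (log2 change 0.40 ± 0.07, SE, adjusted p = 8.51e-06) and 1.75-fold at 10 mg/kg (0.81 ± 0.07, adjusted p = 2.97e-13). After quantile normalization these were 0.20 (adjusted p = 0.0208) and 0.52 (adjusted p = 8.29e-09). It also rose from 0.1 to 1 mg/kg, by 0.44, and from 1 to 10 mg/kg, by 0.40 (adjusted p = 1.97e-06 and 1.08e-05), and by 0.23 and 0.33 after quantile normalization. The 1 mg/kg rise did not pass when arrays were scaled to the hybridisation controls, spiked in after labelling (0.23, adjusted p = 0.204), nor on arrays 1 to 4 alone after quantile normalization (0.16, adjusted p = 0.262), where fewer arrays enter. The step from 0.1 to 1 mg/kg was lost in the same settings, at 0.31 (adjusted p = 0.0697) and 0.19 (adjusted p = 0.169). The 10 mg/kg rise passed with the hybridisation controls (0.57, adjusted p = 0.000128).

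**Figure D2:**
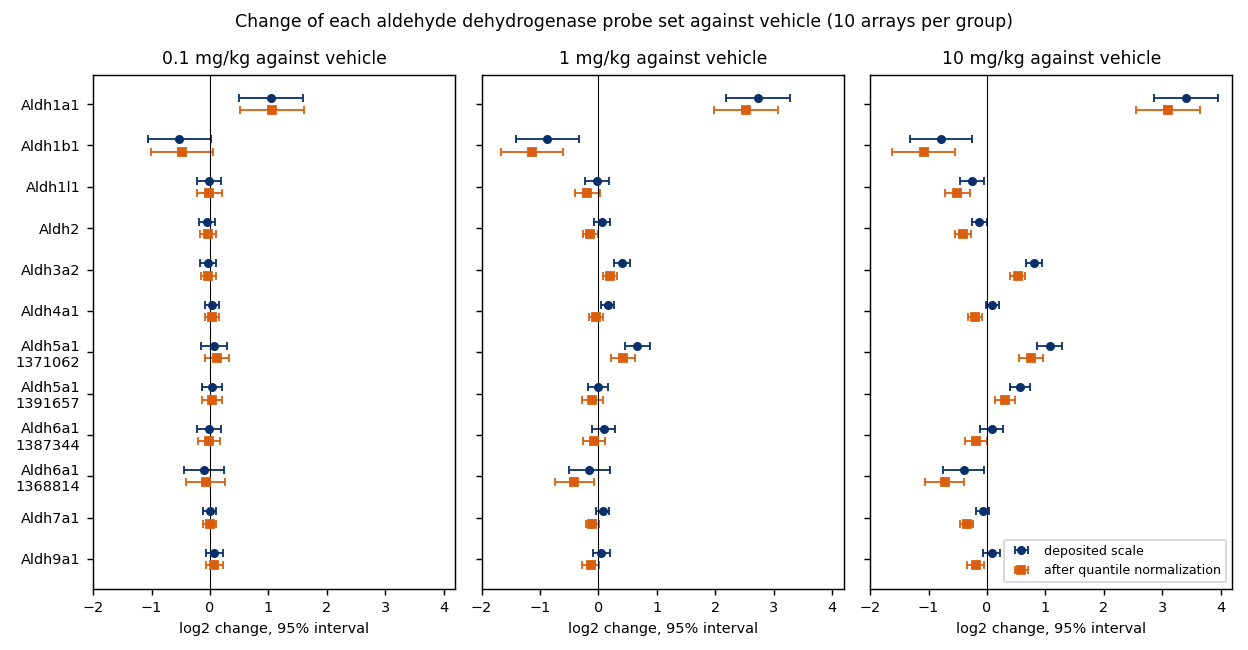
Log2 change against vehicle at each dose for the 12 Aldh probe sets, as deposited and quantile-normalized, with 95% intervals from the fit. On both scales the intervals of Aldh1a1, Aldh3a2 and Aldh5a1 (1371062_PM_at) at 10 mg/kg lie above 0 and that of Aldh1b1 below it, while the point values of Aldh4a1, Aldh9a1 and the Aldh6a1 probe set 1387344_PM_at lie above 0 on the deposited scale and below it on the other.

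Aldh5a1, the mitochondrial succinic semialdehyde dehydrogenase that completes the breakdown of GABA, rose. Its probe set 1371062_PM_at read 5.70 to 6.55 (median 6.28) in vehicle and 5.88 to 6.64 (median 6.33) at 0.1 mg/kg. It read 6.49 to 7.52 (median 6.85) at 1 mg/kg and 6.98 to 7.65 (median 7.37) at 10 mg/kg. The 1 mg/kg group just touched vehicle at its lower end, and the 10 mg/kg group lay wholly above vehicle. The rise was 1.59-fold at 1 mg/kg (0.67, adjusted p = 6.41e-06) and 2.11-fold at 10 mg/kg (1.07, adjusted p = 6.75e-11), with 0.42 (adjusted p = 0.00317) and 0.76 (adjusted p = 1.46e-07) after quantile normalization. On arrays 1 to 4 alone of the 1 mg/kg group the quantile-normalized rise was 0.32 and did not pass (adjusted p = 0.111).

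Both dose steps of 1371062_PM_at of Aldh5a1 passed on the deposited and quantile-normalized scales over all arrays. From 0.1 to 1 mg/kg it rose by 0.60 (adjusted p = 2.81e-05; 0.30 and adjusted p = 0.0341 after quantile normalization), and from 1 to 10 mg/kg by 0.41 (adjusted p = 0.00305; 0.34 and adjusted p = 0.018). The first step did not pass after quantile normalization once any of 8 single arrays was left out, namely arrays 3, 4, 6 or 8 of 0.1 mg/kg or 4, 5, 8 or 9 of 1 mg/kg, with adjusted p from 0.0503 to 0.0823, nor on arrays 1 to 4 alone of 1 mg/kg (0.20, adjusted p = 0.349). With scaling to the hybridisation controls the second step did not pass (0.34, adjusted p = 0.117). The second probe set, 1391657_PM_at, was dim, and its mean lay below the mean array median in each of the 4 groups. At 10 mg/kg these were 2.47 and 2.71, so the rise described next stayed in the dim range for this probe set. It read 1.65 to 2.28 (median 1.82) in vehicle, 1.65 to 2.16 (median 1.95) at 0.1 mg/kg, 1.64 to 2.10 (median 1.90) at 1 mg/kg and 2.13 to 2.75 (median 2.45) at 10 mg/kg. At the last dose it rose by 0.56 against vehicle (adjusted p = 6.9e-07; 0.30 and adjusted p = 0.00459 after quantile normalization) and by 0.56 against 1 mg/kg (adjusted p = 4.09e-06; 0.41 and adjusted p = 0.00079). The first did not pass with the hybridisation controls (0.33, adjusted p = 0.0511), and the second did not on arrays 1 to 4 alone of 1 mg/kg after quantile normalization (0.37, adjusted p = 0.0507). Across the 40 arrays, as deviations from group means, the probe sets of Aldh5a1 were related by r = 0.312 and rho = 0.266 (permutation p = 0.0595 and 0.112), and by r = 0.198 without the 2 farthest arrays. After quantile normalization they gave r = 0.364 and rho = 0.306 (permutation p = 0.0255 and 0.0639), and r = 0.257 without the 2 farthest.

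Aldh4a1, which oxidises the glutamate semialdehyde formed from proline and also serves hydroxyproline breakdown, gave a change whose sign depended on the scale. It read 10.62 to 10.90 (median 10.71) in vehicle, 10.67 to 10.86 (median 10.78) at 0.1 mg/kg, 10.71 to 11.13 (median 10.90) at 1 mg/kg and 10.52 to 11.08 (median 10.79) at 10 mg/kg. The groups overlapped throughout. At 1 mg/kg the difference was 0.16 (adjusted p = 0.0265) on the deposited scale and -0.041 (adjusted p = 0.679) after quantile normalization. The 10 mg/kg difference was 0.09 (adjusted p = 0.155) and -0.20 (adjusted p = 0.00641).

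Aldh6a1, the methylmalonate semialdehyde dehydrogenase of valine and pyrimidine breakdown, was read by 1387344_PM_at and 1368814_PM_at, which gave different calls. The first read 10.08 to 10.79 (median 10.50) in vehicle, 9.79 to 10.67 (median 10.56) at 0.1 mg/kg, 10.31 to 10.81 (median 10.56) at 1 mg/kg and 9.99 to 10.94 (median 10.60) at 10 mg/kg. These groups covered nearly the same range, and the change at 10 mg/kg was 0.08 (95% interval -0.12 to 0.28, adjusted p = 0.485; -0.19 and adjusted p = 0.107 after quantile normalization). The second read 7.23 to 8.01 (median 7.69) in vehicle, 6.60 to 8.05 (median 7.68) at 0.1 mg/kg, 6.70 to 7.92 (median 7.72) at 1 mg/kg and 6.29 to 8.01 (median 7.25) at 10 mg/kg. Its dosed groups reached lower than vehicle but no higher than 8.05, and 1368814_PM_at fell by 0.40 at 10 mg/kg (adjusted p = 0.0391; -0.72 and adjusted p = 0.000475 after quantile normalization). That fall did not pass on the deposited scale without arrays 2, 4, 7, 8 or 9 of vehicle or arrays 2, 4, 5, 7 or 10 of 10 mg/kg, taken 1 at a time, with adjusted p from 0.0519 to 0.111. As deviations from group means over 40 arrays, the probe sets of Aldh6a1 moved together, with r = 0.791 and rho = 0.691 (permutation p = 1e-05 for each, the smallest the 100000 permutations can give), and r = 0.663 without the 2 farthest arrays. With 2 such relations tested, the adjusted p was 2e-05. After quantile normalization the probe sets of Aldh6a1 gave r = 0.679 and rho = 0.607 (permutation p = 2e-05 and 8e-05), and r = 0.533 without the 2 farthest arrays.

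Aldh7a1, which oxidises the semialdehyde of lysine breakdown and betaine aldehyde from choline, differed little from vehicle at any dose on the deposited scale. It read 10.46 to 10.76 (median 10.59) in vehicle, 10.46 to 10.87 (median 10.58) at 0.1 mg/kg, 10.47 to 10.93 (median 10.68) at 1 mg/kg and 10.40 to 10.80 (median 10.52) at 10 mg/kg. All groups overlapped. The change at 10 mg/kg was -0.07 (95% interval -0.18 to 0.04, adjusted p = 0.24) on the deposited scale and -0.35 (adjusted p = 3.94e-06) after quantile normalization. Aldh7a1 fell by 0.15 from 1 to 10 mg/kg (adjusted p = 0.0323; -0.24 and adjusted p = 0.00223 after quantile normalization). The step did not pass on the deposited scale without array 3 or 8 of 1 mg/kg or array 4, 5, 7 or 9 of 10 mg/kg, with adjusted p from 0.0511 to 0.0799. Nor did it pass with the hybridisation controls (-0.21, adjusted p = 0.230), or on the deposited scale with arrays 1 to 4 alone of 1 mg/kg (-0.15, adjusted p = 0.126), where the quantile-normalized step passed (-0.24, adjusted p = 0.0387).

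Aldh9a1 oxidises trimethylaminobutyraldehyde on the way to carnitine and aminobutyraldehyde from polyamines. It read 11.04 to 11.43 (median 11.22) in vehicle, 11.12 to 11.46 (median 11.31) at 0.1 mg/kg, 11.05 to 11.55 (median 11.24) at 1 mg/kg and 10.99 to 11.59 (median 11.35) at 10 mg/kg. No group stood apart. Its change at 10 mg/kg was 0.08 (95% interval -0.06 to 0.23, adjusted p = 0.317), against -0.19 (adjusted p = 0.0284) after quantile normalization. RefSeq also lists a pseudogene, Aldh9a1-ps1, and cross-reading between it and this probe set, or between probe sets of related Aldh genes, was not checked.

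Aldh1l1, the cytosolic formyltetrahydrofolate dehydrogenase that disposes of folate-bound formyl groups, fell at the top dose. It read 9.88 to 10.76 (median 10.37) in vehicle, 9.99 to 10.56 (median 10.31) at 0.1 mg/kg, 9.83 to 10.70 (median 10.28) at 1 mg/kg and 9.80 to 10.35 (median 10.08) at 10 mg/kg. The groups overlapped, with the 10 mg/kg arrays lacking the upper readings of the others. Aldh1l1 fell by 0.25 at 10 mg/kg (adjusted p = 0.0242; -0.51 and adjusted p = 0.000167 after quantile normalization), and this did not pass on the deposited scale without array 3 of vehicle (-0.21, adjusted p = 0.0642). From 1 to 10 mg/kg the difference was -0.23 (adjusted p = 0.063; -0.32 and adjusted p = 0.0332 after quantile normalization). That step passed on both scales without array 6 or 8 of 1 mg/kg or array 2, 3 or 10 of 10 mg/kg, with deposited adjusted p from 0.0217 to 0.0495.

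In the step from 0.1 to 1 mg/kg, then, 3 of the 12 probe sets rose (Aldh1a1, Aldh3a2 and 1371062_PM_at of Aldh5a1) and none fell, where 9.77% of all rose and 2.71% fell. In this step 3 of the 12 were higher and 1 lower after quantile normalization (20.0% of all passed), against 3 and 0 on the deposited scale (41.9% of all), the difference being Aldh9a1 (-0.21, adjusted p = 0.0292). From 1 to 10 mg/kg 3 probe sets of 2 genes rose (Aldh3a2 and both of Aldh5a1) and 2 fell (Aldh2 and Aldh7a1), where 8.18% of all rose and 4.79% fell. Here the split was 3 higher and 3 lower after quantile normalization (16.9% of all passed) and 4 higher and 2 lower on the deposited scale (36.5% of all). When only the arrays of these 2 doses were fitted on the deposited scale, 4 were higher and 0 lower. Neither the Aldh2 nor the Aldh7a1 fall passed in that fit, where 9635 of all 31042 probe sets were higher and 1656 lower.

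The dose courses were compared within a set of 5799 genes, the member included, by the distance between their 3 deposited log2 changes against vehicle. All of these changes share the vehicle arrays, and the distance takes in size as well as shape. The set held genes with a group mean of log2 5 or more in at least 1 group, without symbols starting with LOC or RGD. A gene could thus enter through a dosed group alone. Closest to Aldh1a1 were Cyp4a1, a fatty acid omega-hydroxylase (distance 0.29), Pex11a, a peroxisome division protein (0.33), Ech1, an auxiliary enzyme of unsaturated fatty acid oxidation (0.54), Spink1, a trypsin inhibitor (0.55), and Ehhadh, the peroxisomal bifunctional enzyme (0.61). At 0.1, 1 and 10 mg/kg Cyp4a1 changed by 0.90, 2.94 and 3.26, beside 1.05, 2.74 and 3.41 for Aldh1a1. Pex11a gave 0.85, 2.71 and 3.66. Closest to Aldh1b1 were Lrtm2 (0.23), Bhlhe40, a circadian repressor (0.23), Slc2a5, the fructose carrier (0.29), Inmt, an amine methyltransferase (0.29), and Hsd17b6, a steroid dehydrogenase (0.33). Closest to Aldh3a2 were Limk2 (0.02), and Polr2d, Timm8b, Ino80c and Cmtm8 (0.03 each), though after quantile normalization Polr2d was the nearest of these 5 (0.056) and Limk2 the farthest (0.087). After quantile normalization Limk2 changed by 0.15 at 1 mg/kg and 0.53 at 10 mg/kg, beside 0.20 and 0.52 for Aldh3a2.

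**Figure D3:**
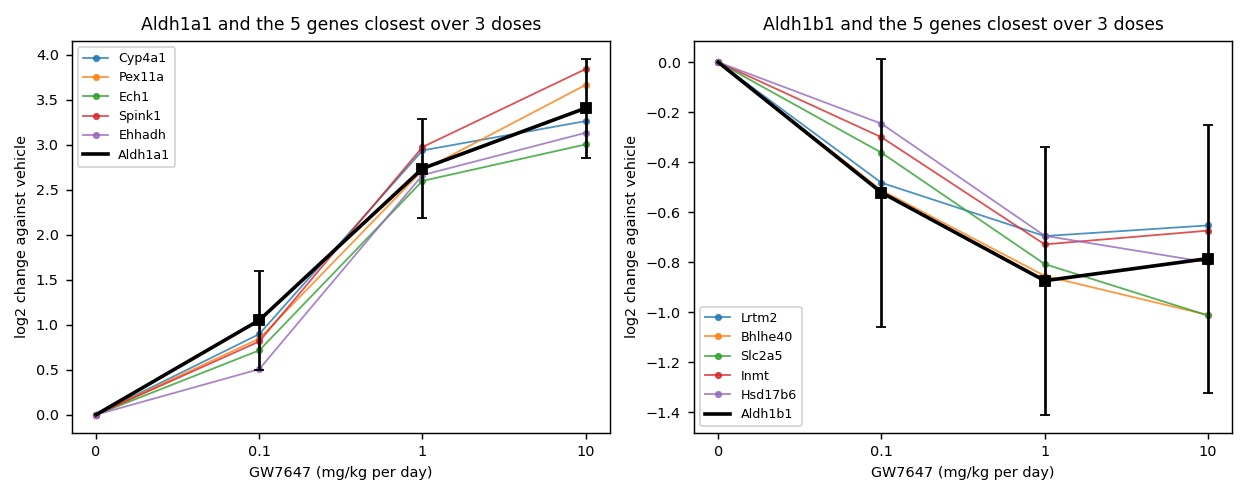
Log2 change against vehicle (vertical axis, deposited scale) by daily dose of GW7647 (horizontal axis, evenly spaced doses) for Aldh1a1 (left) and Aldh1b1 (right) in black with 95% intervals, and for the 5 genes with the closest dose course to each in colour. At 10 mg/kg Aldh1a1 stands at 3.41 between Ehhadh at 3.13 and Pex11a at 3.66, and Aldh1b1 at -0.79 beside Hsd17b6 at -0.80.

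Genes of the pathways around the members were counted from 11 lists, with 1 probe set a gene. For reference, all genes had medians of 0.16 (1 mg/kg) and 0.26 (10 mg/kg) on the deposited scale, which became -0.01 and -0.02 with quantile normalization. Over all probe sets 18.2% rose and 5.86% fell at 10 mg/kg, and 9.13% rose and 3.03% fell at 1 mg/kg. These shares, of probe sets and not of genes, are the reference for the list and marker counts below. Other genes of the Aldh family were measured for 8 of 11, and 1 rose and 2 fell at 10 mg/kg, with a list median of 0.04 (-0.21 after quantile normalization). Aldh3a1, an aldehyde dehydrogenase abundant in cornea, was dim and rose by 0.63. Aldh1a3, another retinal dehydrogenase, fell by 0.47, Aldh1l2, the mitochondrial relative of Aldh1l1, fell by 0.46, and Aldh16a1 differed by 0.45 without passing (0.13 and adjusted p = 0.337 after quantile normalization). None of the 8 rose or fell at 1 mg/kg.

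Alcohol and retinol dehydrogenases, which interconvert alcohols or retinol with the aldehydes that Aldh1a1 oxidises, were measured for 13 of 19. Of these 3 rose and 3 fell at 10 mg/kg, and 3 rose and none fell at 1 mg/kg. Adh7, an alcohol dehydrogenase active on retinol whose vehicle level lay at the array median, rose by 1.63 at 10 mg/kg (adjusted p = 5.09e-09), Dhrs4, a peroxisomal retinal and carbonyl reductase, by 1.42 (adjusted p = 6.98e-18), and Rdh14, a retinol dehydrogenase, by 0.90 (adjusted p = 3.85e-07). Rdh10, the retinol dehydrogenase that makes retinal in the embryo, fell by 0.56 (adjusted p = 7.33e-05). Of 12 measured genes of retinoid binding, storage and clearance, 5 rose and 1 fell at 10 mg/kg and 1 rose at 1 mg/kg. Averaged over all arrays, 4 of the 12 lay below the array median, some of the risers among them. Dgat1, an acyltransferase of triglyceride and retinyl ester synthesis, rose by 1.38, and Rbp2, the intestinal retinol-binding protein, which was dim in vehicle, rose by 0.80. Cyp26b1, which clears retinoic acid, fell by 0.63 (adjusted p = 0.0309), and Bco1, which cleaves beta-carotene to retinal, differed by 0.54 without passing (adjusted p = 0.171).

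Of 10 measured genes for other enzymes that oxidise or reduce aldehydes, 1 rose and 4 fell at 10 mg/kg and 1 rose and 1 fell at 1 mg/kg. Xdh, xanthine dehydrogenase, fell to 0.435 of its vehicle level (adjusted p = 1.46e-13), and the aldo-keto reductases Akr1b7 and Akr1b1 fell by 0.71 and 0.48 (adjusted p = 0.0403 and 0.00864), with Akr1b7 below the array median at 10 mg/kg. Akr7a2, the succinic semialdehyde reductase, rose by 0.79 (adjusted p = 7.01e-12). The partners of Aldh3a2 in omega-oxidation and fatty aldehyde supply were measured for 11 of 13, with 4 risen and 2 fallen at 10 mg/kg and 4 and 1 at 1 mg/kg. The omega-hydroxylases Cyp4a1 and Cyp4a3 rose by 3.26 and 1.57, Hacl1, the lyase that releases an aldehyde from phytanic acid, rose by 1.66, and Cyp4a8 fell by 0.81 to below the array median. Cyp4a1 was the only gene of the 11 lists that rose at 0.1 mg/kg, by 0.90 (adjusted p = 7.12e-07).

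**Figure D4:**
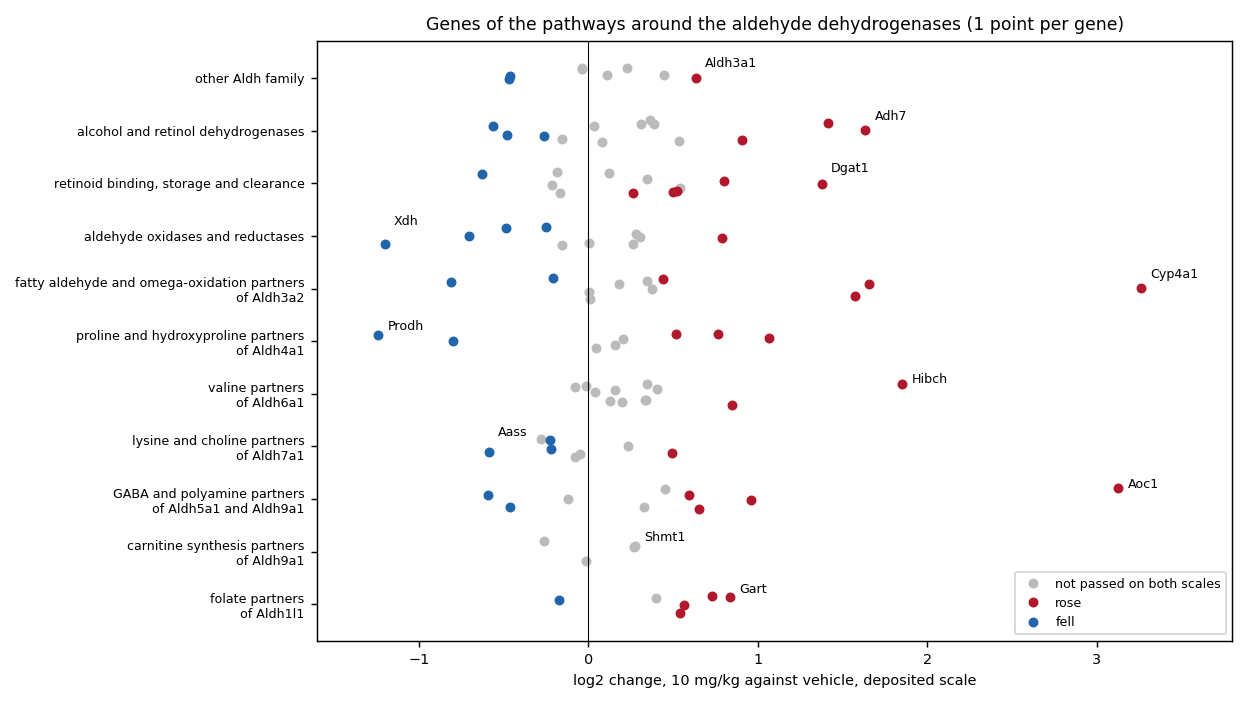
Log2 change at 10 mg/kg against vehicle (horizontal axis, deposited scale) of every measured gene in 11 pathway lists (rows), with genes that rose, fell or did not pass marked apart and the largest named. Cyp4a1 at 3.26 and Aoc1 at 3.13 lie farthest right, and Prodh at -1.24 and Xdh farthest left.

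Around Aldh4a1, 8 of 10 genes of proline and hydroxyproline metabolism were measured, and 3 rose and 2 fell at each of 1 and 10 mg/kg. Prodh, the first enzyme of proline breakdown, fell by 1.24 at 10 mg/kg (adjusted p = 1.85e-10), and Oat, which makes the same semialdehyde from ornithine, fell by 0.80 (adjusted p = 0.00102). Agxt, which converts glyoxylate to glycine, rose by 1.07 and Pycr3, a reductase of proline synthesis, by 0.76. Around Aldh6a1, all 12 valine genes were measured, and 2 rose and none fell at both doses. Hibch, a hydrolase upstream of Aldh6a1, rose by 1.85 at 10 mg/kg (adjusted p = 1.27e-12), and Bckdha, a subunit of the branched-chain keto acid dehydrogenase, by 0.85 (adjusted p = 9.93e-14). Its partner subunit Bckdhb and Pcca of propionate metabolism differed by 0.41 and 0.35 and did not pass after quantile normalization (0.10 and 0.03).

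Around Aldh7a1, 8 of 9 lysine and choline genes were measured, and 1 rose and 3 fell at 10 mg/kg. Aass, the first enzyme of lysine breakdown, fell by 0.59 (adjusted p = 7.2e-05), and Gcdh, glutaryl-CoA dehydrogenase, rose by 0.50 (adjusted p = 2.8e-07). Crym and Chdh, choline dehydrogenase, did not pass (-0.28 and 0.23). Of 9 measured genes of GABA and polyamine metabolism, which feed Aldh5a1 and Aldh9a1, 4 rose and 2 fell at 10 mg/kg and 1 rose and 1 fell at 1 mg/kg. Aoc1, the diamine oxidase, which also lay at the array median in vehicle, rose by 3.13 (8.74-fold, adjusted p = 1.8e-14), Odc1, which makes putrescine, by 0.96, and the monoamine oxidase Maoa by 0.65, whereas Maob fell by 0.59. None of the 4 carnitine synthesis genes measured rose or fell at either dose, with Shmt1 at 0.28, Shmt2 at 0.27, Bbox1 at -0.26 and Tmlhe at -0.02. Of 6 folate genes measured around Aldh1l1, 4 rose and 1 fell at 10 mg/kg. Gart of purine synthesis rose by 0.83, the folate interconverting enzyme Mthfd1 by 0.73, and Mthfd1l and the folate hydrolase Folh1, both dim, by 0.56 and 0.54.

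Markers of other liver cells moved with dose beside the members. Of 8 Kupffer cell and macrophage markers measured, 7 fell at 10 mg/kg and 3 at 1 mg/kg. Their mean level was 6.91 to 7.65 in vehicle, 7.10 to 7.69 at 0.1 mg/kg, 6.63 to 7.75 at 1 mg/kg and 6.13 to 7.20 at 10 mg/kg. Of 6 periportal hepatocyte markers, 5 fell at the top dose and 2 at 1 mg/kg. Their mean level was 9.36 to 10.04 in vehicle, 9.38 to 10.13 at 0.1 mg/kg, 9.14 to 10.00 at 1 mg/kg and 7.99 to 8.998 at 10 mg/kg. Of 7 hepatocyte markers 2 fell at 10 mg/kg, Serpina1 by 0.14 and Cps1 by 0.15. In the same comparison 1 rose and 2 fell of 6 pericentral markers, 1 rose and 2 fell of 9 stellate cell markers, 2 fell of 5 sinusoidal endothelium markers, 2 rose and 1 fell of 6 cholangiocyte markers, and 1 rose of 3 red cell markers. All 5 lymphocyte markers were below the array median and none rose or fell. The part of these cell type markers, and of the shift in array scale and poly-A controls, in the changes of the members was not tested, apart from the fits with and without scaling and on arrays 1 to 4 given above.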

How the data were processed

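Liver RNA of 40 rats was hybridised to 40 Affymetrix 3′ expression arrays after biotin labelling, per the labels' protocols. The deposited values are log2 signals, made by the authors with Partek and GCRMA per the submitters' processing notes (versions not given in the sources used here). In GCRMA, probes are background-corrected, normalized and summarised into probe sets. Why the scale differs between dose groups is not given in the sources used here. For arrays, the number of rats limits the precision.

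Probe sets took their gene from the platform annotation, with symbols updated through Entrez IDs: 19068 had 1 symbol, 573 several and 11498 none, and 18989 Entrez IDs matched RefSeq. After removing 97 control probe sets, 31042 were fitted in limma 3.58.1 (R 4.3.3; lmFit, contrasts.fit, eBayes) with 4 group means, and two-sided p-values were adjusted by Benjamini-Hochberg over all of them, with a threshold of 0.05. The fit was tested on data simulated with independent normal spread and no shift of scale between groups. That test therefore does not cover the scale shift described above. Tables and plots used Python 3.11.15 and matplotlib 3.10.9.

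Named genes are all 10 members and, per list, up to 4 genes of largest absolute change at 10 mg/kg, in the probe set of highest mean; per member named for likeness, the 5 nearest genes. The members, lists and the rule for "rose" and "fell" were chosen with earlier results of these data known. Alternatives changed the scaling, filter, prior, array weights, samples and size threshold. Fits on arrays 1 to 4 of 1 mg/kg after quantile normalization, and leave-one-out on both scales, were added after seeing the data. No 2 arrays shared more than 0.129% of values. Same-numbered samples of different groups had residual correlations from -0.239 to 0.372. Differently numbered samples were not set beside them, so this range cannot tell whether the numbers pair samples. The fit treats samples as unpaired.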

Additional observations from a re-analysis of the deposited data

Results flagged for a closer look

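In 48 sets of 10 arrays (12 Aldh probe sets in 4 groups), the highest or lowest array was compared with its nearest neighbour, and 4 arrays lay farther off than the 95% critical value of Dixon's ratio of gap to range allows. Chance alone gives such a flag in about 1 in 20 sets. Aldh1a1 at 1 mg/kg was highest on array 1, at 10.77, with the next at 10.36. Aldh1a1 at 10 mg/kg was lowest on array 4, at 9.86, with the next at 10.74. The Aldh6a1 probe set 1387344_PM_at at 0.1 mg/kg was lowest on array 8, at 9.79, with the next at 10.30, and that array is 1 of the 2 with the lowest upper quartile of all probe sets. Aldh7a1 at 0.1 mg/kg was highest on array 3, at 10.87, with the next at 10.67. None of these arrays decided a call against vehicle for its own probe set.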

How the results depend on the processing

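Counts of Aldh probe sets past the threshold on the deposited scale were 0, 5 and 7 at 0.1, 1 and 10 mg/kg, 3 from 0.1 to 1 mg/kg and 6 from 1 to 10 mg/kg. At 1 mg/kg the 5 became 3 with scaling to hybridisation controls, 3 with arrays 1 to 4 alone, 2 with those arrays after quantile normalization, and 2 when tested against a 1.2-fold change. At 10 mg/kg the 7 became 11 after quantile normalization and 4 against a 1.2-fold change, and the F test count went from 5 to 11 after quantile normalization. From 0.1 to 1 mg/kg the 3 became 1 with arrays 1 to 4 after quantile normalization. From 1 to 10 mg/kg the 6 became 2 with hybridisation controls, 3 with the filter at log2 5, 3 with arrays 1 to 4 on either scale and 1 against a 1.2-fold change. The fits on 4 arrays hold fewer samples. The filter drops the dim Aldh5a1 probe set, and 2 probe sets that it kept also lost their call, which left 2 higher and 1 lower. For these 2 and for the other settings the cause was not tested. Aldh4a1 changed sign at 1 mg/kg (0.16) to -0.041 with quantile normalization, -0.014 with hybridisation controls, -0.070 with quantile normalization and a poly-A covariate, and -0.048 with arrays 1 to 4 and quantile normalization. At 10 mg/kg (0.09) it went to -0.20, to -0.15 with a common median and to -0.25 with the covariate, and Aldh9a1 (0.08) to -0.19 with quantile normalization. Of 1865 other values, 123 changed sign without a call on either side. Leaving out 1 array gave 0 to 0, 4 to 5, 6 to 8, 3 to 4 and 4 to 6 called, in the order above, and 0 to 0, 4 to 4, 6 to 7, 2 to 3 and 4 to 6 that rose or fell. Over all probe sets, quantile normalization took the calls from 11109 to 5957 at 1 mg/kg and from 20490 to 12121 at 10 mg/kg. The counts over all probe sets also dropped in other settings. At 1 mg/kg, 10169 higher and 940 lower became 1592 and 1304 with hybridisation controls, and 1224 and 50 against a 1.2-fold change. From 1 to 10 mg/kg, 9728 higher and 1606 lower became 1633 and 935, and 437 and 103, in these settings. At 10 mg/kg, 18671 and 1819 became 5772 and 458 against a 1.2-fold change.

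With the replicate number as a block, 0, 5, 7, 3 and 6 probe sets were called, as without it. The samples are known to share only a number, so whether this block is a pairing is not known.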
